A study of Rattus norvegicus with 4 samples.

Results

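The cytosolic chaperonin CCT, also called TRiC, is a barrel of stacked rings, and each ring holds the same 8 related subunits, encoded in the rat by Tcp1, Cct2, Cct3, Cct4, Cct5, Cct6a, Cct7 and Cct8. The members were chosen by subunit identity, with the 39 °C against 33 °C values of the series already known, and the outlying value of Cct8 in that contrast was part of the choice. The values of that contrast are therefore given for the subunits as a description. A count of subunit probe sets past the threshold, given beside that over all probe sets, is not evidence about them. All 8 genes were measured, by 9 probe sets annotated to 1 gene symbol each, out of 12783 such probe sets for 10411 genes on the array. Cct6a had 2 probe sets and each of the other genes 1, so the large Cct8 difference could not be compared with a second Cct8 probe set. The annotation of the array lists a RefSeq transcript behind 1 of the 9 (Tcp1), another sequence record behind 7, that of Cct8 among them, and none behind the dimmer Cct6a probe set.

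CCT encloses newly made proteins in its cavity and lets them fold there in a cycle driven by ATP. Actin and tubulin are its best known substrates, and a set of proteins with WD40 repeats, some of which act in mitosis, also depend on it. Prefoldin binds unfolded actin and tubulin and hands them to CCT. Because every ring needs all of the subunits, their genes are usually described as expressed together. The subunits are named by Greek letters, from alpha (Tcp1) and beta (Cct2) through gamma (Cct3), delta (Cct4), epsilon (Cct5), zeta (Cct6a) and eta (Cct7) to theta (Cct8).

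The cells were RTEC11, a conditionally immortalized line of rat tracheal epithelial cells from animals that carry a transgene for the SV40 large T antigen in a temperature-sensitive form, shared by all 4 samples. In the nonpermissive group, at 39 °C for 3 days, the antigen loses its activity, and in the permissive group, at 33 °C for 3 days, it is active and keeps the cells dividing. Each group had 2 arrays. Temperature and antigen activity changed together and cannot be told apart, RTEC11 is a single line, and the labels do not say whether replicates were separate cultures, so an error or p-value here covers the variation from array to array, part or all of which may be technical. In bulk RNA, fewer cells of a type and less RNA per cell cannot be told apart.

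The deposited arrays had trimmed means of 500.1 or 500.2 intensity units. On log2 values after quantile normalization, the correlation between replicates was 0.981 for the 39 °C pair and 0.978 for the 33 °C pair. Between arrays of different temperature it was 0.951 to 0.953. The ratio of the 3′ to the 5′ control probe set of beta-actin, a sign of RNA quality, was 1.38 and 1.26 at 39 °C and 1.18 and 1.33 at 33 °C. All 8 epithelial markers examined, among them Krt8, Krt18, Cdh1 and Epcam, lay above the limit for dim probe sets (6.60 on the log2 scale, an intensity of 81.1), and their summed intensity was 73923 and 73296 at 39 °C, against 63219 and 66214 at 33 °C. Within that sum Krt8, Krt19, Epcam, Cldn4 and Dsp were called higher at 39 °C, Krt18 (-0.36) and Krt7 (-0.45) were called lower, and Cdh1 was not called. Of the 6 basal cell markers Krt14 and Itgb4 were bright, Krt15 lay nearer the limit, and Krt5, Tp63 and Ngfr were dim. Itgb4 was called higher at 39 °C (1.25 on the log2 scale, adjusted p 1.71e-06, limma), while Krt14 (-0.08) and Krt15 (0.63) were not called. Of the ciliated cell markers the regulator Foxj1 was dim while Tppp3 was called lower at 39 °C (-0.91 on the log2 scale, adjusted p 0.0161, limma). The markers of secretory cells with a probe set (3, Scgb1a1, Aldh1a1 and the dim Muc5ac) had a summed intensity of 1188.8 and 981.7 at 39 °C, against 118.9 and 175.6 at 33 °C. At 33 °C the intensities of Scgb1a1 (38.7 and 58.3) and Aldh1a1 (65.9 and 69.6) also lay under the limit for dim probe sets. No leukocyte or endothelial marker lay above the limit (0 of 4 and 0 of 3). Of 7 fibroblast markers 2 did, Vim, which cultured epithelial cells also make, and Col3a1, while Col1a1, Col1a2, Dcn, Lum and Pdgfra were dim. The fibroblast sum, most of it Vim, was 7677 and 8480 at 39 °C and 8067 and 9072 at 33 °C, while Col3a1 alone was called higher at 39 °C (1.61 on the log2 scale, adjusted p 0.000432, limma), with intensities of 263.5 and 172.8 at 39 °C and 59.1 and 47.9 at 33 °C. The part of these marker differences in the CCT values was not tested.

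Every one of the 9 CCT probe sets was on average lower at 39 °C than at 33 °C. The differences ran from -0.14 to -2.52 on the log2 scale, taken as log2(intensity + 16) after quantile normalization. The median was -0.52 over the 9 probe sets and -0.42 over the 8 that do not belong to Cct8, beside -0.03 over all 9520 probe sets tested. All 9 lay above the limit for dim probe sets on their mean over all 4 arrays. In the limma fit across all probe sets, 6 of the 9 had an adjusted p under 0.05 and were lower, against 24.7% of all probe sets tested. Both 39 °C arrays lay below both 33 °C arrays in 8 of the 9, against 39.1% of all. Since this contrast was part of the choice of the members, these counts are given for orientation only.

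**Figure D1:**
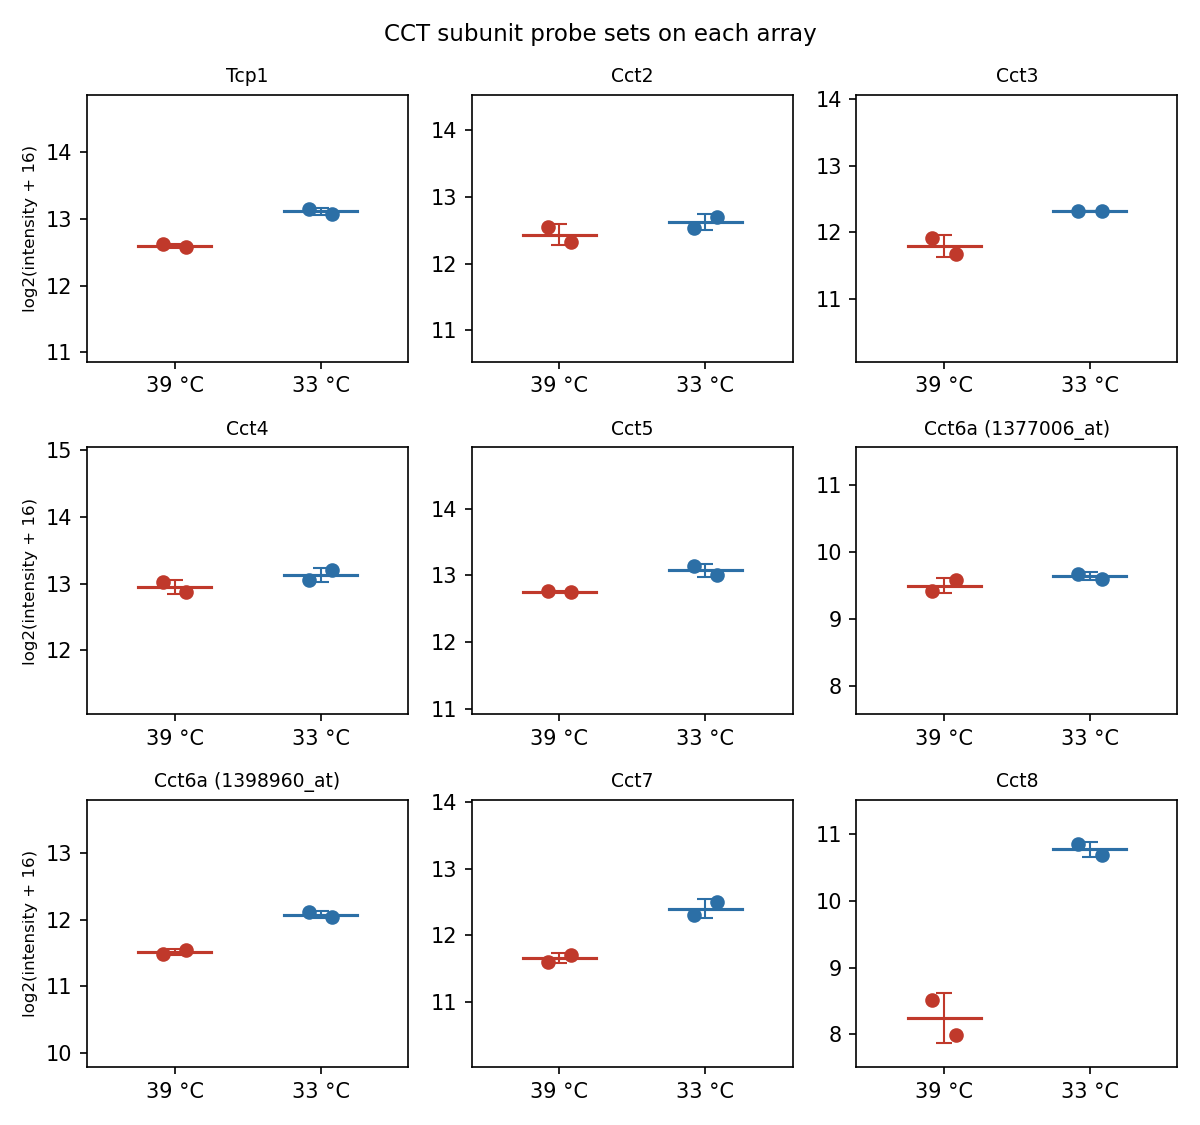
Each panel plots 1 CCT probe set, with log2(intensity + 16) after quantile normalization on the vertical axis and the nonpermissive (39 °C) arrays left of the permissive (33 °C) arrays. Points are arrays, horizontal lines are means and bars are the SD of 2 arrays, and every panel spans 4 log2 units, so that the wide gap of Cct8, with means of 8.25 at 39 °C and 10.77 at 33 °C, can be set against the narrower gaps of the other panels. Of the panels for Cct6a the first shows the dimmer probe set.

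Cct8, the theta subunit, had intensities of 362.1 and 250.1 at 39 °C, against 1842.8 and 1644.8 at 33 °C. The groups lay far apart, although the 39 °C replicates differed from each other by 0.53 on the log2 scale and the 33 °C replicates by 0.16. The mean log2 value was 8.25 ± 0.37 at 39 °C and 10.77 ± 0.11 at 33 °C (SD, n = 2 each). The difference was -2.52 ± 0.16 (SE), a level 5.75-fold lower at 39 °C. Each SE given here is that of the limma fit, which moderates the variance of a probe set toward that of others of similar intensity. It is not the error of the probe set's own replicates alone. All 4 Cct8 values lay above the limit for dim probe sets, so neither group was dim for this probe set. Over the 4 possible pairs of a 39 °C with a 33 °C array the difference ran from -2.87 to -2.18. Of the 9520 probe sets tested, 9 fell at least as far, Cct8 included. Relative to the median of the other CCT probe sets the Cct8 difference stood at -2.11 log2 units, and relative to Cct7, the subunit with the next largest difference, at -1.78. Without nonpermissive replicate 1, the brighter of the 39 °C arrays for Cct8, the offset from the others was -2.39, and without nonpermissive replicate 2 it was -1.93.

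Set against the other subunits on the same array, Cct8 was lower at 39 °C on each array. Its log2 value minus the median of the other 8 probe sets was -3.72 and -4.03 at 39 °C and -1.58 and -1.91 at 33 °C. These offsets describe the probe sets and not the amounts of the proteins or transcripts, since probe sets of different genes differ in brightness. A shift shared by all subunits on an array cancels in them.

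Cct7, the eta subunit, had intensities of 3032.2 and 3216.8 at 39 °C, against 5189.6 and 6025.2 at 33 °C. Its difference of -0.74 ± 0.09 (SE) on the log2 scale, 1.67-fold lower, was the largest after Cct8, and its groups did not overlap. For Cct6a, the zeta subunit, the brighter probe set had intensities of 2747.5 and 2880.9 at 39 °C and 4545.2 and 4351.4 at 33 °C, a difference of -0.56 ± 0.09 (SE). The dimmer one had 676.0 and 761.1 at 39 °C and 797.8 and 747.9 at 33 °C, a difference of -0.14 ± 0.12 (SE), and its deposited intensities overlapped. The gene with 2 probe sets thus did not give the same size of difference with both, and the brighter stood at -0.42 relative to the dimmer.

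Cct3, the gamma subunit, had intensities of 3658.8 and 3139.2 at 39 °C and 5253.6 and 5286.3 at 33 °C. Tcp1, the alpha subunit, had 6019.4 and 5886.9 at 39 °C and 9232.8 and 8971.7 at 33 °C. Both differed by -0.52 on the log2 scale, with SE of 0.10 and 0.08, and neither showed an overlap of the groups. Cct5, the epsilon subunit, had 6648.2 and 6685.9 at 39 °C and 9231.7 and 8513.1 at 33 °C, a smaller difference of -0.32 ± 0.08 (SE), again without overlap.

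Cct2 and Cct4, the beta and delta subunits, differed least among the genes with 1 probe set. Cct2 had intensities of 5746.1 and 4959.6 at 39 °C and 6067.6 and 6815.5 at 33 °C. Its groups overlapped after normalization, and its difference was -0.19 ± 0.10 (SE) on the log2 scale. Cct4 had 8018.3 and 7301.8 at 39 °C and 8732.6 and 9681.1 at 33 °C, a difference of -0.18 ± 0.09 (SE). In the order of differences, Cct2, Cct4 and the dimmer Cct6a probe set lay closer together than their SE, and so did Tcp1, Cct3 and the brighter Cct6a probe set. The step between Cct7 and Cct8 was wider than the whole range of the other 8 probe sets, which ran from -0.74 to -0.14.

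The sign of the CCT differences did not depend on how the arrays were scaled, while their size did. All 9 were below 0 in 4 versions of the data: quantile normalized, as deposited, median centred, and matched on the poly-A controls that are spiked into the RNA. The median of the 9 was -0.52, -0.61, -0.76 and -0.99 in that order, and that of all probe sets tested was -0.03, 0.03, -0.12 and -0.35. The CCT median relative to the overall one was -0.49 after quantile normalization and -0.64 under each of the other scalings, which differ from one another by 1 shift per array. The smaller differences moved most in proportion, with Cct2 at -0.19, -0.27, -0.42 and -0.65 and the dimmer Cct6a probe set at -0.14, -0.10, -0.25 and -0.49 in the same order. The Cct8 difference was -2.52, -2.47, -2.62 and -2.85 under these scalings.

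**Figure D2:**
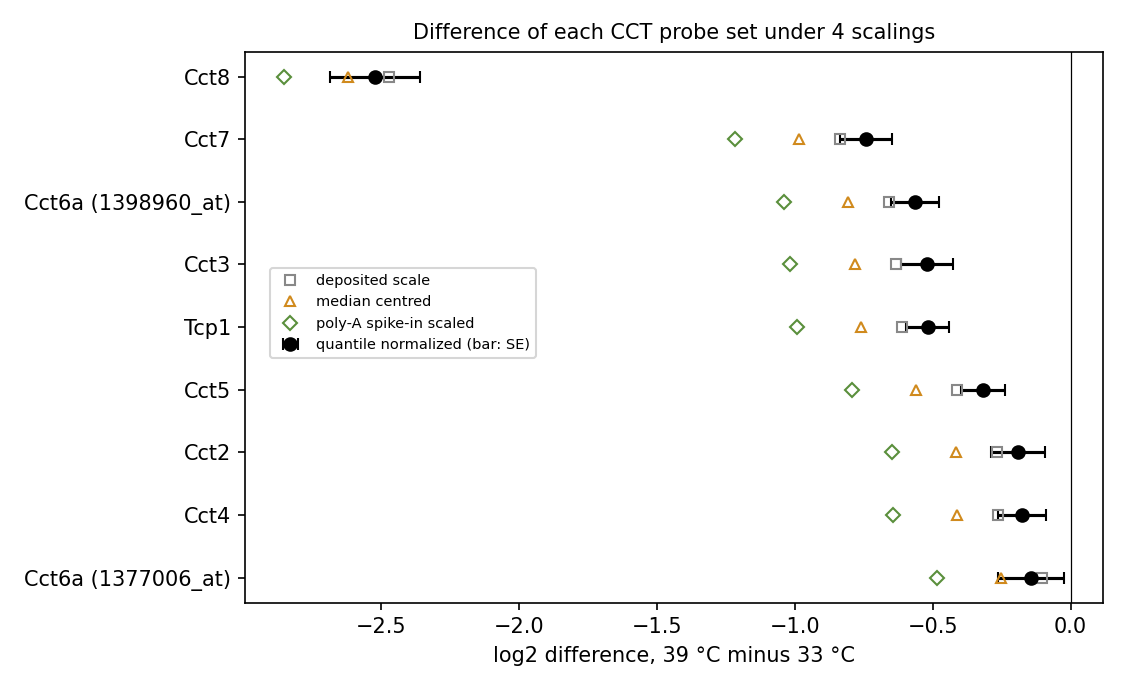
The log2 difference, 39 °C minus 33 °C, is plotted for each of the 9 CCT probe sets, from the largest fall at the top to the smallest at the bottom. Black points are quantile normalized values, with bars for the moderated SE of the limma fit, and open symbols the other scalings. Cct8, at -2.85 to -2.47, stands apart from the rest in each. The upper Cct6a row is the brighter probe set.

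**Figure D3:**
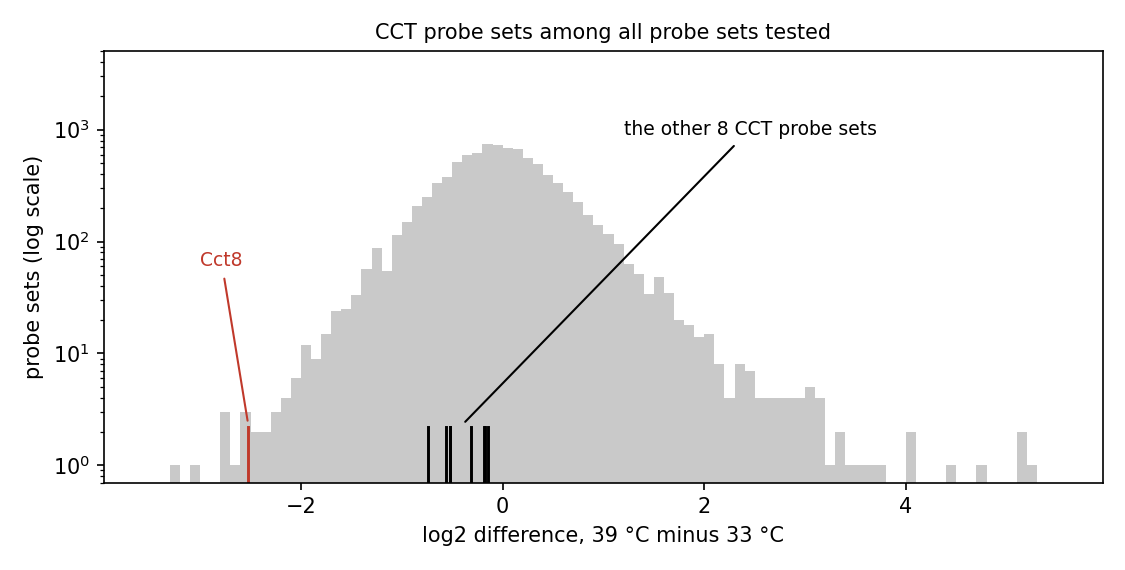
The grey histogram counts the 9520 probe sets tested by their log2 difference, 39 °C minus 33 °C, with a log vertical axis and bins of 0.1. Ticks mark the CCT probe sets, with Cct8 (red, -2.52) near the lower edge of the distribution and the other 8 (black, -0.74 to -0.14) in its centre left of 0.

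Promoters of Cct8, of Cct7 and of Cct4 are printed here since these are the genes with the largest, the next largest and the smallest difference among genes with 1 probe set. They come from RefSeq on build GRCr8, run from 250 bases before to 50 bases after the annotated start, and are read 5′ to 3′ on the strand of the gene. All 8 subunit genes matched an entry. Their starts lie on chromosomes 1 (Tcp1), 7 (Cct2), 2 (Cct3 and Cct5), 14 (Cct4), 12 (Cct6a), 4 (Cct7) and 11 (Cct8). The Cct8 window is chr11:40208279-40208578 on the minus strand, the Cct7 window chr4:119546480-119546779 on the plus strand and the Cct4 window chr14:101192807-101193106 on the plus strand. Capitals mark every match, on either strand, to the CCAAT box (CCAAT), the GC box (GGGCGG), the E-box (CACGTG), which the growth regulator MYC and its relatives bind, and a pair of facing heat shock element units (GAANNTTC or TTCNNGAA), which heat shock factors bind in longer arrays.
Cct8: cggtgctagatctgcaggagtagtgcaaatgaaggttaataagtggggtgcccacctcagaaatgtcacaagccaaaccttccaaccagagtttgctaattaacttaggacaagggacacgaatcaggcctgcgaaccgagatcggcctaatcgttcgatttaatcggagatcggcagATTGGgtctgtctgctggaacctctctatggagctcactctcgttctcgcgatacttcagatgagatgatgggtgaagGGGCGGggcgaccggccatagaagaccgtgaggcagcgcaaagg
Cct7: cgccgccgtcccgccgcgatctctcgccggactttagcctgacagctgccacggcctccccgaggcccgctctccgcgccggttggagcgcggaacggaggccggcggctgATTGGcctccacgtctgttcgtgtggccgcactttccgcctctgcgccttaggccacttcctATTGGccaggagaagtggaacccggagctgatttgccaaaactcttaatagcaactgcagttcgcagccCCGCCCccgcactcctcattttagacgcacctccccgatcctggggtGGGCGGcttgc
Cct4: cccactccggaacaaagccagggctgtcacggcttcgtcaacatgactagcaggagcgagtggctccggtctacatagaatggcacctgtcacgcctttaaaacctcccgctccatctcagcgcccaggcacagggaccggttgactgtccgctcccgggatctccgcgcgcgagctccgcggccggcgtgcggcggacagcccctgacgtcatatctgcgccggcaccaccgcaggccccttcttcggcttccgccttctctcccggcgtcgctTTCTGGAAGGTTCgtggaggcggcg

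The Cct8 window held 1 CCAAT box, 72 bases before the start, and 1 GC box, 6 bases after it. The Cct7 window held 2 of each, and the Cct4 window 2 heat shock pairs that overlap each other and lie 25 and 30 bases after the start. Over all 8 subunits, the CCAAT box was present in 5 windows, the GC box in 6, a heat shock pair in 3 (Cct4, Cct5 and Cct6a) and the E-box in 0. Among all 33469 promoter windows of this length the shares were 37.5% for the CCAAT box, 33.1% for the GC box, 15.9% for a heat shock pair and 6.42% for the E-box. A match is a description of letters in this window.

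Of the subunit genes, 3 started within 1000 bases of a gene that runs the other way, as head-to-head pairs: Tcp1 with Mrpl18 (425 bases between the starts), Cct3 with Tsacc (297 bases) and Cct7 with Pradc1 (194 bases). Only Mrpl18, which encodes a protein of the mitochondrial ribosome, had a probe set of its own. Its intensities were 3400.2 and 2635.7 at 39 °C and 2933.2 and 2686.6 at 33 °C. The groups overlapped, and the difference of 0.16 ± 0.12 (SE) on the log2 scale did not pass the test (adjusted p 0.319, limma). It was -0.06 with median centring and -0.29 with spike-in scaling. Tcp1 was at -0.52 in the same fit, and the difference between these neighbours was not tested.

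The genes around CCT were tested in the limma fit across all 9520 probe sets, of which 47.2% were called, 22.5% higher and 24.7% lower at 39 °C. Most prefoldin probe sets were called lower. Of 6 probe sets for 5 of its subunits, 5 were called lower and 0 higher, with a median log2 difference of -0.41. Pfdn4 had intensities of 1411.0 and 1502.8 at 39 °C and 2640.9 and 2774.4 at 33 °C, without overlap, and fell by 0.85 ± 0.10 (SE) on the log2 scale (adjusted p 3.2e-05, limma). Pfdn2 fell with both probe sets (-0.43 and -0.67), Pfdn6 was at -0.39 and Pfdn1 at -0.26, and Pfdn5 at -0.07 was not called. The calls of Pfdn1, Pfdn2 and Pfdn6 were not steady to leaving out an array, since between 1 and 3 of the 5 calls were left when each array was left out in turn, 1 without nonpermissive replicate 2, 2 without nonpermissive replicate 1 and 3 without either permissive array.

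Of the other helpers of CCT, the phosducin-like cofactors Pdcl and Pdcl3, which bind the ring together with substrates, had 3 probe sets, of which 1 was called. It was the dimmer of the Pdcl3 probe sets, at -1.17 ± 0.23 (SE, adjusted p 0.00144), with intensities of 79.7 and 101.4 at 39 °C and 184.1 and 213.7 at 33 °C. The brighter Pdcl3 probe set was at -0.14 and that of Pdcl at 0.16, neither called. Of 5 tubulin folding cofactors, which take up tubulin after CCT, 2 were called lower and 0 higher: Tbce at -0.81 ± 0.12 (SE, adjusted p 0.000191) and Tbcb at -0.44 ± 0.10 (adjusted p 0.00391). Tbca was at 0.11, Tbcd at -0.21 and Arl2 at -0.23, none of them called.

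Of 10 probe sets for 9 actins and tubulins, the main substrates, 3 were called higher and 3 lower, near the shares of 22.5% and 24.7% over all probe sets (median log2 difference -0.16). The tubulins Tuba4a (-0.88 ± 0.09), Tubb6 (-0.69 ± 0.08) and Tubb4b (-0.39 ± 0.09, SE) fell, the call of Tubb4b being lost without the dim filter (adjusted p 0.0507, limma) or without the intensity trend (adjusted p 0.0652). Tubb5, a beta tubulin of most tissues, was called higher with both probe sets (0.72 and 0.35), and Tubb2b was called higher (0.74), with intensities of 130.1 and 122.9 at 39 °C and of 52.3 and 71.0, under the limit for dim probe sets, at 33 °C. With spike-in scaling none of these 3 calls was left and the second Tubb5 probe set turned to -0.13, and median centring also ended the call of that probe set (0.10). Without nonpermissive replicate 2 the call of the second Tubb5 probe set was lost (0.24), and without permissive replicate 1 that of Tubb2b (0.57). Without nonpermissive replicate 1 (0.75) or nonpermissive replicate 2 (0.72) Tubb2b lay under the limit for dim probe sets and was not tested. Actg1, the gamma actin of non-muscle cells, was bright on every array (17865 and 18159 at 39 °C, 18648 and 18610 at 33 °C). It was not called (0.06 ± 0.07, SE), but was at -0.20 and called lower with median centring and at -0.43 with spike-in scaling. Tubb2a, whose groups overlapped, was at -0.33, the brighter Tubb3 probe set at -0.34 and Tubg1 at 0.015, none of them called. The other Tubb3 probe set was dim and not tested. Actb had no probe set of its own apart from the 3 controls for its 3′ end, middle and 5′ end. These were at -0.25, -0.33 and -0.33 on the deposited scale and were not tested. The alpha tubulins Tuba1a, Tuba1b and Tuba1c of the list also had no probe set of their own, so Tuba4a was its only alpha tubulin measured.

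Among 12 other genes whose proteins CCT is known to fold, 9 of 19 probe sets were called lower and 1 higher (median -0.23). The mitotic kinase Plk1 fell furthest, by 1.26 ± 0.10 (SE) on the log2 scale. The activators of the anaphase-promoting complex Cdc20 (-0.97, -1.02 and -0.90 in the called probe sets, -0.23 in a further one that was not called) and Fzr1 (-0.80), cyclin E1 (Ccne1, -0.83), Mlst8 (-0.96), a subunit of the TOR kinase complexes, the deacetylase Hdac3 (-0.68) and Gnb2 (-0.45, and -0.03 in a second probe set), a G protein beta subunit, were the others. The Cdc20 probe sets at -1.02 and -0.90 were dim or nearly so at 39 °C, with intensities of 77.6 and 71.1 for the first and 88.8 and 127.1 for the second. Another Cdc20 probe set, at 0.06, was dim and not tested. The Cdc20 value of -0.90 lost its call without nonpermissive replicate 1 (-0.64). The tumour suppressor gene Vhl rose by 0.73 ± 0.13 (SE) and was called higher under all 4 scalings. Gnb1, Stat3, Rptor and Ppp2r2a were not called.

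The cytosolic chaperones that pass proteins on were called higher or not at all after quantile normalization. Of 6 probe sets for Hsp90ab1, Hsph1, Dnaja1 and Stip1, 0 were called lower and 3 higher, those of the HSP110 family chaperone Hsph1 (0.39) and the HSP40 co-chaperone Dnaja1 (0.66 and 0.26). With arrays centred on their medians the Hsph1 call was lost (0.23), the second Dnaja1 probe set was at -0.0012, and both Hsp90ab1 probe sets were called lower (-0.31 and -0.24). Leaving out permissive replicate 2 (0.30) or nonpermissive replicate 1 (0.32) also ended the Hsph1 call, and leaving out permissive replicate 1 (0.21) or nonpermissive replicate 1 (0.19) that of the second Dnaja1 probe set. The first Dnaja1 probe set was called higher under all 4 scalings. The heat shock factor Hsf1, a transcription factor, had intensities of 329.9 and 336.8 at 39 °C and 333.4 and 321.7 at 33 °C, with a difference of -0.08 ± 0.14 (SE, adjusted p 0.678, limma), which turned to 0.02 on the deposited scale. Hsf2 was at -0.12 and not called, and Hsf4 was dim.

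The mitochondrial chaperonin, a relative of CCT whose lid is a separate subunit, was lower in both of its genes. Hspe1, the lid subunit, had intensities of 4257.3 and 4213.1 at 39 °C and 6031.4 and 6411.3 at 33 °C and fell by 0.45 ± 0.08 (SE) on the log2 scale. Hspd1, the ring subunit, had 6181.0 and 5639.6 at 39 °C and 7623.6 and 7603.4 at 33 °C, with a difference of -0.27 ± 0.08 (SE, adjusted p 0.0187), and its call was lost without nonpermissive replicate 2 (-0.19). These sizes lay within the range of the CCT subunits other than Cct8. Of the chaperonin-like relatives Mkks alone had probe sets, at -0.25 and 0.53, neither called.

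**Figure D4:**
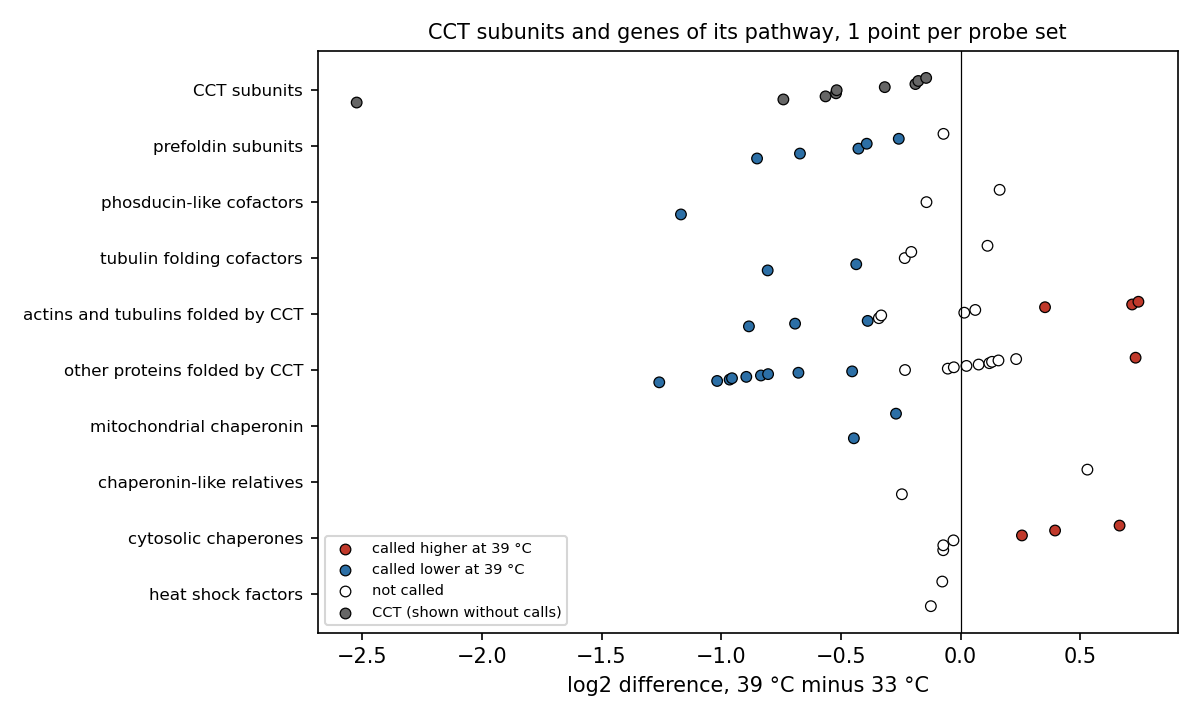
Each point is 1 probe set placed by its log2 difference, 39 °C minus 33 °C, in the row of its list. Filled red and blue points of the pathway lists were called higher (for example Vhl at 0.73) or lower (for example Plk1 at -1.26), white ones were not called, and the CCT subunits in the top row are shown in grey without calls.

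The genes whose pattern over the 4 arrays lay nearest to that of Cct8 were found by the Euclidean distance between centred log2 values. They were the neuropeptide precursor gene Npw (distance 0.17), Pdlim7 (0.24), the protease gene Klk6 (0.37), the metallothionein gene Mt2A (0.37) and Lss (0.38), an enzyme of sterol synthesis. Their differences ran from -2.27 (Lss) to -2.79 (Klk6). Unlike Cct8, each of these had a mean log2 value at 39 °C under the limit for dim probe sets, from 5.69 for Pdlim7 to 6.52 for Klk6. The genes nearest to the mean of the other 7 subunits were Prpf3 (distance 0.01), which encodes a splicing factor, the kinase Src (0.02), Dusp12 (0.02), Ecsit (0.03) and Depdc1 (0.03), with differences between -0.45 and -0.43. Each gene was taken at its probe set nearest to the pattern, and another Src probe set was at -0.55. All of these genes were picked on the same contrast, so their values carry no test here.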

How the data were processed

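Total RNA of 4 RTEC11 samples had been hybridised to an Affymetrix rat array, 1 array per sample, after cDNA synthesis and labelling of cRNA with biotin, per the labels' protocols. The file holds deposited linear intensities for 15923 probe sets. How probes were summarised is not stated in the labels. The authors' intensities share a trimmed mean (2% at each end) on every array. The number of arrays limits the precision.

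Groups came from sample titles. The 57 control probe sets were left out, 16 was added, log2 was taken, and arrays were quantile normalized because their medians differed by 0.175 (limit 0.1). Probe sets with a mean under the 40th percentile were left out (6346 of 15866), and 9520 were tested with limma 3.58.1 in R 4.3.3 (intensity trend, two-sided, Benjamini-Hochberg over all probe sets, threshold 0.05). Each SE came from this fit, which moderates the variance of a probe set toward that of others of similar intensity. Figures were drawn with matplotlib 3.10.9. Gene names came from GEO's platform annotation, and the symbols of all 9 CCT probe sets matched the RefSeq table of GRCr8. A probe set with several genes (312) or none listed (2771) was not named. The procedure was also run on simulated arrays, with means and variances taken from these data and differences planted well above the dim limit. It called 55.2% of 67 planted differences of 0.5 log2, 89.6% of 67 of 1 log2 and 100% of 66 of 2 log2. Of its 172 calls, 9 were not planted. A difference of about 0.5 log2 or less that was not called is therefore not shown to be absent.

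The members, the pathway lists, the markers and the alternatives were chosen with earlier results of these data known. Named were all CCT probe sets, every list gene with a called probe set, head-to-head neighbours and Hsf1. The 5 genes nearest in pattern to Cct8 and to the mean of the other subunits were also named. That mean took each subunit at its brightest probe set, while each near gene was taken at its nearest probe set. Uncalled list genes were named in addition, after their values were seen, to complete the lists. Alternatives were the deposited scale, median centring, poly-A spike-in scaling (24 probe sets), 1 or 64 added, no dim filter or the 60th percentile, no intensity trend, the replicate block, leaving out each array, 1 probe set per gene, and leaving out probe sets ending in _x_at or _s_at.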

Additional observations from a re-analysis of the deposited data

How the results depend on the processing

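All 134 alternative values of the 9 CCT probe sets, over the 15 alternatives, kept the sign of the reported difference. As reported, 6 of the 9 were called lower, against 2350 of all 9520 tested. The count was 8 against 2112 on the deposited scale, 8 against 3014 with median centring and 9 against 4371 with spike-in scaling. Without the intensity trend it was 5 against 2115, and Cct5 was not called. These counts too are given for orientation only. The CCT median was -0.76 with median centring and -0.99 with spike-in scaling, and -0.53 to -0.40 with each array left out. The Cct8 difference relative to the median of the others was -2.11 as reported and -2.39 to -1.93 with each array left out. It was -1.96 on the deposited scale, with median centring and with spike-in scaling. With 1 added it was -2.17, with 64 added -1.93 and with 1 probe set per gene -2.005. Over all probe sets, spike-in scaling gave 1081 higher and 4371 lower calls, against 2144 and 2350 as reported, and leaving out an array 1554 to 2076 higher and 1772 to 2143 lower. Of all calls, those higher made up 47.7% as reported, 53.8% on the deposited scale, 37.7% with median centring and 19.8% with spike-in scaling.

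With spike-in scaling, lower calls numbered 2 for phosducin-like cofactors, 4 for tubulin cofactors, 7 for actins and tubulins, 14 for other substrates, 1 for chaperonin-like relatives and 3 for cytosolic chaperones, and higher calls 0 for actins and tubulins and 1 for cytosolic chaperones. With median centring they were 2 lower for phosducin-like cofactors, and 2 lower and 1 higher for cytosolic chaperones. On the deposited scale 1 chaperonin-like relative was higher. Without a dim filter 3 prefoldin and 1 mitochondrial chaperonin probe sets were lower, and with the 60th percentile 0 phosducin-like cofactors, since fewer probe sets were tested. Without the intensity trend 1 mitochondrial chaperonin gene was lower and 1 cytosolic chaperone probe set higher. Apart from the dim limit, the cause was not tested. Leaving out an array gave 1 to 3 lower for prefoldin, 1 to 2 lower for the mitochondrial chaperonin, 0 to 1 lower and 0 to 1 higher for chaperonin-like relatives, 0 to 1 lower and 1 to 3 higher for cytosolic chaperones, and 1 to 3 higher for actins and tubulins. Of the 29 called list probe sets, 15 lost the call in at least 1 alternative, 10 of them without at least 1 array. A call also counted as lost where the probe set fell under the dim limit and was not tested. With the 60th percentile that was so for Pdcl3, Mlst8, Tubb2b, the Cdc20 probe sets at -1.02 and -0.90 and the Pfdn2 probe set at -0.67. For Pdcl3, Mlst8 and the Cdc20 probe set at -1.02 it was the only loss.

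The samples share only replicate numbers. The deviations of arrays with the same number correlated at -0.00604, and with the replicate block 2317 probe sets were higher and 2540 lower. No paired design is stated in the labels. Signal over background limits the calls of probe sets whose dimmer group lay near or under the limit, among them those of Pdcl3, Tubb2b, Cdc20 (-1.02 and -0.90) and Pfdn2 (-0.67), and with 2 arrays per group 1 array can decide a call.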
